A study of Mus musculus with 18 samples.

Results

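At 5 months of age, 3 arrays of Ppt1 knockout mice were set against 3 arrays of wild-type mice, and the difference between them was read across all genes. These 6 arrays were chosen by the genotype and age in their labels and are 6 of 18 in the series, which profiled total RNA of both genotypes at 3, 5 and 8 months on 1 Affymetrix mouse array per sample. In both genotypes replicate 1 was male and replicates 2 and 3 were female, and values per array are given below in that order. The labels name the source as brain and cochlea together. They give neither the strain nor the knockout allele, and they do not say whether the 3 arrays of a group came from separate mice or from pools. The p-values here therefore speak only of the spread within groups, estimated over all 18 arrays, part of which may be technical.

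Ppt1 encodes a lysosomal thioesterase that cleaves fatty acid chains, mainly palmitate, from the cysteines of lipid-modified proteins on their way to degradation. Without the enzyme, lysosomes of brain cells fill with autofluorescent storage material, and in people the loss underlies the infantile form of neuronal ceroid lipofuscinosis. The knockout mouse is known for early activation of astrocytes and microglia, loss of cortical and thalamic neurons, and seizures.

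The dissected tissue was checked by its markers. Of 27 measured excitatory neuron genes, the vesicular glutamate transporter gene Slc17a7 read 915, 791 and 828 in the knockout and 927, 992 and 1014 in the wild type (signal). The cerebellar genes Gabra6 and Pcp2 were also present, with at least 1659 and 1524 in the knockout and at least 1730 and 1430 in the wild type. Of 24 listed cochlear genes, 22 had a probe set, 7 were bright enough to test, and 4 lay at background on all 6 arrays. The hair cell gene Otof read 31.3 to 56.7 in the knockout and 27.1 to 48.2 in the wild type. The arrays thus carried brain transcripts, cerebellum included, and gave little of the cochlea.

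Facts of the whole set of arrays were few. The median signal lay between 43.17 and 46.09 on the 18 arrays, and 18 of 18 matched the labelled sex. Arrays of 5 months correlated with the other arrays of their own group at 0.9793 to 0.9815. Along the main principal component (24.2% of the variance) the 5-month knockout arrays lay at 17.6, 12.3 and 11.1 and the 5-month wild-type arrays at -13.5, -16.9 and -11.6. The ratio of 5-prime to 3-prime actin signal, a sign of RNA quality, was 0.389, 0.463 and 0.473 in the knockout, against 0.497, 0.499 and 0.412 in the wild type, and the same ratio of Gapdh was 1.161, 1.28 and 1.28 in the knockout, against 1.391, 1.347 and 1.234 in the wild type. Both ratios were lowest on the male knockout array, and their part in the results was not tested. Replicate 3 of the 8-month knockout stood apart from its group (correlation 0.9614) and enters the 5-month test through the shared estimate of the spread.

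Ppt1 was reduced on every knockout array. At its brightest probe set the signal was 12.8, 0.879 and 18.5 in the knockout and 543, 607 and 629 in the wild type. The knockout arrays lay far below the wild-type arrays, 2 of 3 at the background set by bacterial control probe sets. The log2 change was -4.57 ± 0.20 (standard error of the limma fit, as after every log2 change here), with an adjusted p of 3.24e-12. A second probe set read 34.4, 20.4 and 7.76 in the knockout and 352, 373 and 307 in the wild type (-3.35 ± 0.26, adjusted p 3.96e-08). Among its dimmer probe sets, 1 differed by -0.65 ± 0.26 (adjusted p 0.261) and 1 by 0.30 ± 0.20 (adjusted p 0.554), while another fell below the level needed for testing. The position of any of them relative to the change made in the knockout allele was not determined.

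Of 27025 probe sets tested, 595 (2.2%) passed an adjusted p of 0.05. The knockout was higher at 442 (1.64%), which named 320 genes, and lower at 153 (0.566%), which named 121 genes, with 0 genes called both ways. Increases were larger as well as more frequent: 118 higher probe sets (85 genes) changed at least 2-fold, against 15 lower ones (8 genes), and 26 higher ones (17 genes) at least 4-fold, against 3 lower ones. The median log2 change was 0.74 among the higher calls and -0.47 among the lower calls, while over all probe sets it was -0.013. At 593 of the 595 the knockout and wild-type arrays did not overlap. The exceptions were Junb and Dusp1, both immediate early genes. The calls were picked on these same arrays, so this separation adds no support to them. Of all genes at their brightest probe set, 12.7% had every knockout array above every wild-type array and 9.76% had every one below. Of 249 called genes with several tested probe sets, 40 had all of them called, and 86.4% of their 515 other probe sets differed in the direction of the call. The counts were 247 higher and 47 lower without the male knockout array, 83 lower without knockout replicate 2, 100 lower without wild-type replicate 1, and 285 higher and 65 lower without wild-type replicate 2. Without replicate 3 of the 8-month knockout they were 642 higher and 288 lower.

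**Figure D1:**
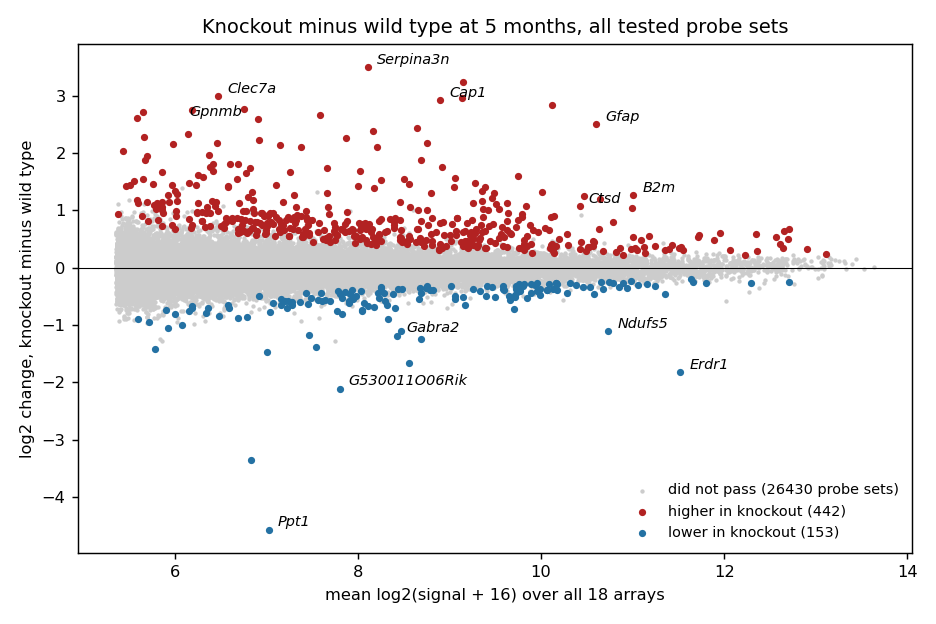
Log2 change, knockout minus wild type at 5 months (vertical), against the mean log2(signal + 16) over all 18 arrays (horizontal), with 1 point per tested probe set. The 442 higher calls reach 3.5 (Serpina3n) and outnumber the 153 lower calls, of which Ppt1 is the lowest at -4.57.

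Genes of reactive astrocytes were among the largest increases. Serpina3n, a secreted protease inhibitor, read 1041, 1030 and 719 in the knockout and 87.4, 70.1 and 47.6 in the wild type. All 3 knockout arrays stood well above the wild type, the largest increase of any named gene (3.50 ± 0.24, 11.3-fold, adjusted p 4.46e-09). Gfap, the intermediate filament protein of reactive astrocytes, read 4333, 4007 and 3692 in the knockout and 677, 737 and 678 in the wild type at its brightest probe set (2.50 ± 0.11, adjusted p 3.24e-12). Its probe set with the largest change rose by 2.83 ± 0.15, and the third by 2.18. S1pr3, a sphingosine-1-phosphate receptor, read 324, 239 and 225 in the knockout and 69.2, 73.0 and 70.8 in the wild type (1.66 ± 0.21, adjusted p 2.99e-05). In each of these genes except Gfap's most changed probe set the male knockout array was the highest, and no knockout array overlapped the wild type.

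Of 22 listed reactive astrocyte genes 18 were measured, and 11 rose and 0 fell, against 2.31% of all genes higher and 0.656% lower when 1 probe set, the brightest, stood for each gene. The median log2 change of the 18 was 1.22, beside 0.006 over all 12496 genes, and 15 of the 18 had every knockout array above every wild-type array, a pattern found in 12.7% of all genes. Osmr, the oncostatin M receptor (1.81 ± 0.25), the adhesion receptor Cd44 (1.32 ± 0.27), vimentin (Vim, 1.32 ± 0.18), the metalloproteinase inhibitor Timp1 (1.13 ± 0.26), and the transcription factors Cebpd (1.45 ± 0.22) and Stat3 (0.84 ± 0.14) rose. The iron-sequestering lipocalin Lcn2 read 191, 138 and 112 in the knockout and 32.8, 39.6 and 1.18 in the wild type (2.15 ± 0.45, adjusted p 0.00944). Its call was lost without the male knockout array or without wild-type replicate 3, the array at background (adjusted p up to 0.0739). Nestin (Nes, 0.06) and synemin (Synm, 0.07), other intermediate filament proteins of the list, did not pass.

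General astrocyte genes moved less. Of 24 measured, 7 rose and 0 fell, beside 2.31% and 0.656% of all genes, and the median change was 0.21. The water channel Aqp4 read 3035, 3282 and 2805 in the knockout and 1322, 1604 and 1484 in the wild type (1.04 ± 0.10, adjusted p 9.72e-07). The fatty acid binding protein gene Fabp7 (0.96 ± 0.17) and the membrane protein gene Mlc1 (0.60 ± 0.10) followed. The glutamate transporter gene Slc1a2 rose by 0.29 ± 0.07 and the folate enzyme gene Aldh1l1 by 0.52 ± 0.12. The glutamate transporter Slc1a3 (0.15), the connexins Gja1 (0.19) and Gjb6 (0.03), the potassium channel Kcnj10 (0.01) and glutamine synthetase (Glul, -0.08) did not pass. Only 3 members passed without the male knockout array, and 4 without knockout replicate 2 or without wild-type replicate 2. In whole tissue, a change in the number of cells of a type and a change in RNA per cell cannot be told apart, here or in any list below.

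**Figure D2:**
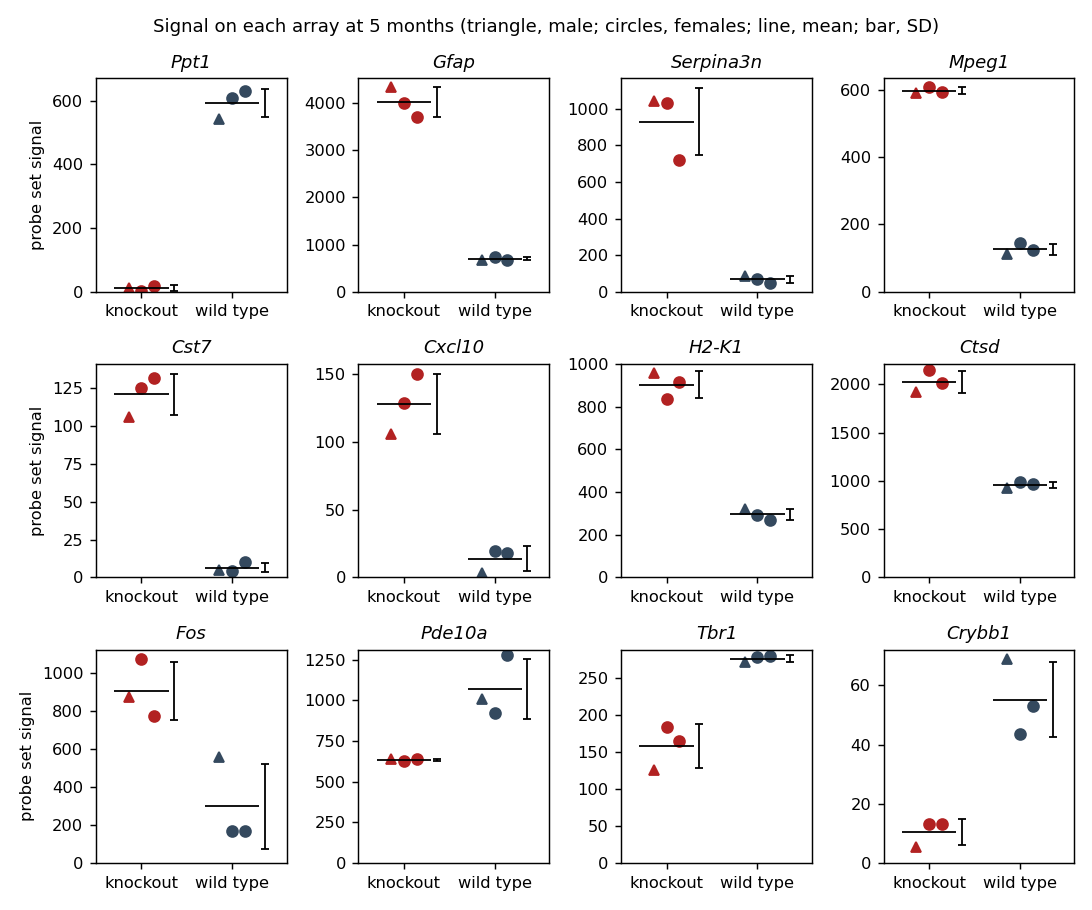
Signal of 12 genes on each 5-month array, knockout left and wild type right in each panel, with triangles for the male and circles for the females, a line at the mean and a bar of 1 SD. Gfap, Mpeg1, H2-K1 and Ctsd separate without overlap and with little spread, while Fos has a high wild-type male at 557.

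Microglial and macrophage genes formed the other large group of increases. Lyz1 and Lyz2 encode the near-identical lysozymes of myeloid cells, whose probe sets may share RNA. Lyz1 read 1479, 2088 and 1545 in the knockout and 147, 352 and 157 in the wild type, and Lyz2 read 585, 906 and 618 in the knockout and 100, 159 and 106 in the wild type. In both genotypes replicate 2 was the highest for both genes, and the groups did not overlap (Lyz1 2.96 ± 0.29, Lyz2 2.38 ± 0.27). Mpeg1, a pore-forming protein of macrophages, read 589, 608 and 593 in the knockout and 112, 144 and 123 in the wild type (2.11 ± 0.18, adjusted p 2.2e-07). The endolysosomal glycoprotein Cd68 read 315, 303 and 312 in the knockout and 57.2, 76.5 and 49.7 in the wild type (2.10 ± 0.21, adjusted p 1.63e-06). For Mpeg1 and Cd68 the knockout arrays were nearly equal to each other. Of 30 pan-microglia and macrophage genes 25 were measured, and 15 rose and 0 fell, with a median of 0.79. Over all genes 2.31% were called higher and 0.656% lower. In 23 of 25 every knockout array lay above every wild-type array, against 12.7% of all genes. The Fc receptor subunit Fcer1g (1.29 ± 0.17), the phosphatase Ptprc (1.24 ± 0.18) and the calcium-binding protein Aif1 (1.03 ± 0.19) rose, while the transcription factor Spi1 (0.17) and the actin regulator Coro1a (0.10) did not pass.

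Genes of the disease-associated state, which microglia near damage or storage are known to enter, rose at 13 of 20 measured members, with 0 lower and a median of 0.85. The shares of all genes were 2.31% higher and 0.656% lower. The beta-glucan receptor Clec7a read 204, 291 and 277 in the knockout and 26.7, 24.6 and 6.79 in the wild type, where 1 array lay at background (2.99 ± 0.28, adjusted p 7.42e-07). The galectin Lgals3 read 288, 300 and 256 in the knockout and 22.6, 37.1 and 25.1 in the wild type (2.76 ± 0.29). Gpnmb, a glycoprotein of cells with burdened lysosomes, read 240, 336 and 258 in the knockout and 36.8, 21.0 and 42.6 in the wild type (2.59 ± 0.36). These 3 genes lay above the wild type on every knockout array. Cst7, a cystatin, read 106, 125 and 132 in the knockout but lay at background on all 3 wild-type arrays, so its signal was at least 8.33-fold higher in the knockout. Here and below, "at least" compares the brighter genotype's average with the average background of the dimmer genotype. The small surface glycoprotein Cd52 (2.23 ± 0.22), the signalling adaptor Tyrobp (1.88 ± 0.15) and the tetraspanin Cd9 (1.40 ± 0.11) rose. Lipoprotein lipase (Lpl) rose by 0.58 ± 0.12. Trem2, the receptor that signals through Tyrobp, read 106, 154 and 125 in the knockout and 56.1, 62.7 and 39.7 in the wild type. Its arrays did not overlap, but it missed the threshold (1.07 ± 0.31, adjusted p 0.0762).

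Genes of resting microglia behaved otherwise. Of 18 measured homeostatic genes, 2 rose, 1 fell, and the median was 0.06, beside 2.31% of all genes called higher and 0.656% lower. Counts this small say little about the list as a whole. The purinergic receptor gene P2ry12 read 118, 121 and 135 in the knockout and 189, 210 and 149 in the wild type (-0.49 ± 0.16, adjusted p 0.117). Cx3cr1, the fractalkine receptor, differed by 0.16 ± 0.26, the growth factor receptor Csf1r by 0.09 ± 0.09, and Tmem119 by -0.20 ± 0.16, none past the threshold. The members that rose were Fcrls, an Fc receptor-like gene (1.06 ± 0.16), and the protease inhibitor Cst3 (0.40 ± 0.07). The member that fell was Crybb1, which encodes a beta-crystallin known as a marker of immature microglia. It read 5.5, 13.0 and 13.0 in the knockout, all at background, and 68.9, 43.7 and 52.9 in the wild type, so it was at least 3.69-fold lower (adjusted p 0.001).

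Complement and chemokine genes rose with them. Of 14 measured complement genes, 7 rose and 0 fell, beside 2.31% and 0.656% of all genes, with a median of 0.75. C1qa, a chain of the protein that starts the classical pathway, read 1003, 1085 and 1111 in the knockout and 451, 474 and 333 in the wild type (1.33 ± 0.14, adjusted p 4.13e-06). C1qb (1.22 ± 0.14) and C1qc (1.30 ± 0.18), the other chains, rose by about as much. The integrin chain Itgb2 (1.41 ± 0.23), the C1 inhibitor gene Serping1 (0.83 ± 0.17, lost without the male knockout array or wild-type replicate 2, adjusted p up to 0.0679) and clusterin (Clu, 0.67 ± 0.07), an extracellular chaperone and complement inhibitor, rose too. The complement receptor gene C3ar1 did not pass (1.12). Of 15 measured chemokine and cytokine genes, 6 rose and 0 fell, beside the same shares of all genes, with a median of 0.57. Ccl12, a monocyte attractant, read 83.0, 59.5 and 83.9 in the knockout and lay at background on all wild-type arrays, so it was at least 5.15-fold higher in the knockout. Colony stimulating factor 1 (Csf1), which sustains microglia, rose by 0.83 ± 0.17, a call lost without the male knockout array or wild-type replicate 2 (adjusted p up to 0.0832). The list count was 3 without the male knockout array or wild-type replicate 3, and 2 without wild-type replicate 2. Of 18 listed lymphocyte genes 16 had a probe set, and 3 lay at background on all 6 arrays. Only 1 was bright enough to test, the immunoglobulin gene Ighm (-0.23 ± 0.32, adjusted p 0.822). The filter on mean signal left the others uncompared between genotypes, so the list cannot tell whether lymphocytes were present or changed.

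Interferon response genes formed a group of their own. Interferons bind receptors that activate STAT and IRF factors, and these bind the interferon-stimulated response element in promoters. The promoters of the 4 higher list members with the largest change that hold the core of this element, the letters GAAANNGAAA on either strand, are shown because the search below rests on those letters. Each runs 5′ to 3′ on the strand of its gene, from 250 bases before to 50 bases after the RefSeq gene start (assembly GRCm38.p6), with the matches in capitals. In Bst2 a pair of matches overlap. In Ifit1 and Gbp2 the matches read on the opposite strand.
Cxcl10 (chr5:92348840-92349139, minus strand): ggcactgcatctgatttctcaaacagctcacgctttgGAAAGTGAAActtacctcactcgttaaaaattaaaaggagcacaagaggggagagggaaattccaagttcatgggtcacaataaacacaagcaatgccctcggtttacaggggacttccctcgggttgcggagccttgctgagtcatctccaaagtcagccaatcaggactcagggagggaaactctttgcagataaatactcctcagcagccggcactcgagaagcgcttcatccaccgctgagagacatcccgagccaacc
Ifit1 (chr19:34640639-34640938, plus strand): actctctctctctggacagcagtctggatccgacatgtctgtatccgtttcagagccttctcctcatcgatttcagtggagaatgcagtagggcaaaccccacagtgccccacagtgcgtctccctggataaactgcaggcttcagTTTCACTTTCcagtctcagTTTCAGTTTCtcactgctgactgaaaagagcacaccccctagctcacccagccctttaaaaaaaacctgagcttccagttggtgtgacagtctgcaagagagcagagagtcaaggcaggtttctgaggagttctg
Bst2 (chr8:71537423-71537722, minus strand): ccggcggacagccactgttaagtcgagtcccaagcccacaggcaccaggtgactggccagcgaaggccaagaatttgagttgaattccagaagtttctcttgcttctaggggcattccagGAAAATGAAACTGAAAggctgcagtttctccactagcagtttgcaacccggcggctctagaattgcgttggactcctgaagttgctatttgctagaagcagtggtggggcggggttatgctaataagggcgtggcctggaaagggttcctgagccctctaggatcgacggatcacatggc
Gbp2 (chr3:142620413-142620712, plus strand): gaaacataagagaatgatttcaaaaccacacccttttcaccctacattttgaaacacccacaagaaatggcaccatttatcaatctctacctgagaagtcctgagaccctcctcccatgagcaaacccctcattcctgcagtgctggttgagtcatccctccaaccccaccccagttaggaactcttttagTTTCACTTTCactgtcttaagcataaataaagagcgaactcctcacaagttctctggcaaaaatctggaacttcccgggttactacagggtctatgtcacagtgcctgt

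Cxcl10, a chemokine that draws activated T cells and whose match starts 213 bases before the gene start, read 106, 129 and 150 in the knockout and 3.16, 19.8 and 18.2 in the wild type (2.32 ± 0.26, adjusted p 7.39e-06). Ifit1, which binds foreign RNA and whose matches start 104 and 85 bases before the gene start, read 180, 124 and 152 in the knockout and 20.3, 40.9 and 22.2 in the wild type (1.96 ± 0.26). Bst2, a tether of budding virus, read 125, 140 and 122 in the knockout and 26.8, 24.3 and 30.3 in the wild type (1.75 ± 0.20). The groups did not overlap in these genes. The guanylate-binding protein gene Gbp2, with its match 59 bases before the gene start, read 150, 130 and 127 in the knockout and 32.4, 41.0 and 22.1 in the wild type (1.68 ± 0.19). Its relative Gbp6 read 188, 148 and 200 in the knockout and 30.5, 42.7 and 13.2 in the wild type (2.17 ± 0.23). Gbp6 matched no promoter window, so its promoter was not searched.

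Of 42 listed interferon response genes 34 were measured, and 21 rose and 0 fell, against 2.31% of all genes higher and 0.656% lower. The median log2 change was 0.94, and 27 of 34 had all knockout arrays above all wild-type arrays, against 12.7% of all genes. The glycoprotein Lgals3bp (1.74 ± 0.14), the antiviral membrane protein Ifitm3 (1.40 ± 0.12), the deubiquitinase-like Usp18 (1.47 ± 0.24), Ifit3 (1.42 ± 0.21) and Irf9 (0.60 ± 0.16), the DNA-binding subunit of the interferon factor complex, were among those that rose. Its partner Stat2 (0.16) and the inducible factor Irf1 (0.32) did not pass, nor did Irf7 (0.93 ± 0.29, adjusted p 0.114). Of the 21 that rose, 16 matched a promoter window, and 9 of these (56.2%) held the core letters. Of the measured members that did not pass, 7 of 11 (63.6%) held them, so the letters did not separate the members that rose from those that did not. Among all genes with a window, by coincidence also 27025, 3.99% held them, and among the 10078 of these that were tested 3.61% did.

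Genes of antigen presentation rose at 7 of 15 measured members, with 0 lower and a median of 0.49. Over all genes the calls were 2.31% higher and 0.656% lower. H2-K1, a class I heavy chain, read 959, 835 and 915 in the knockout and 321, 294 and 270 in the wild type (1.56 ± 0.10, adjusted p 9.16e-10). B2m, the light chain shared by class I molecules, read 3035, 3187 and 3340 in the knockout and 1269, 1436 and 1254 in the wild type (1.26 ± 0.08, adjusted p 9.16e-10). The knockout was 2.96-fold brighter for H2-K1 and 2.4-fold for B2m, with little spread within either genotype. H2-D1, another class I heavy chain close in sequence to H2-K1, rose by 1.12 ± 0.10, and the probe sets of these genes may share RNA. The immunoproteasome subunit Psmb8 (0.97 ± 0.18) and the loading chaperone tapasin (Tapbp, 0.62 ± 0.10) rose. Of the class II genes, H2-Aa rose by 1.13 ± 0.18, whereas H2-Ab1 (0.45), H2-Eb1 (0.34) and the invariant chain Cd74 (0.49) did not pass.

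**Figure D3:**
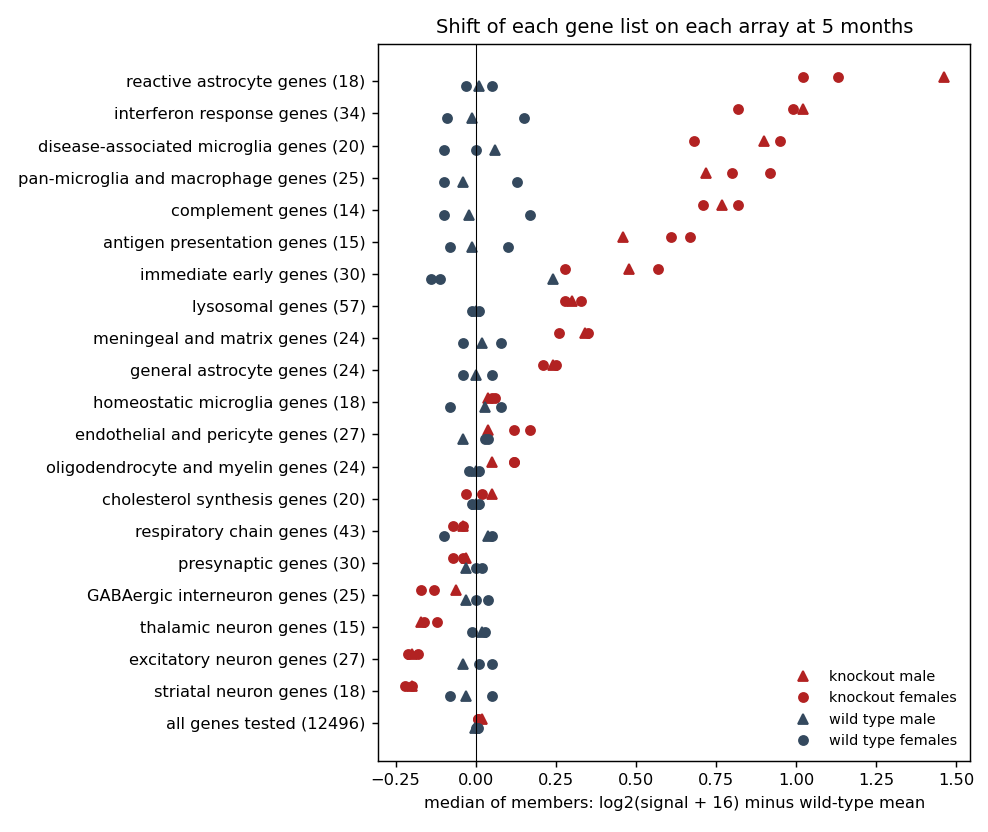
Median over each list's measured members of log2(signal + 16) minus its 5-month wild-type mean (horizontal) on each 5-month array, with triangles for males and circles for females, knockout above wild type within each row. Reactive astrocyte genes sit at 1.46, 1.13 and 1.02 on the knockout arrays, and excitatory neuron genes at -0.2, -0.18 and -0.21.

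Lysosomal genes, the compartment in which the enzyme works, rose at 21 of 57 measured members and fell at 0 (median log2 change 0.30). Among all genes 2.31% were called higher and 0.656% lower. The aspartic protease cathepsin D (Ctsd) read 1924, 2150 and 2012 in the knockout and 924, 985 and 965 in the wild type (1.07 ± 0.11, adjusted p 2.44e-06). Cathepsin S (Ctss), a protease mainly of microglia, read 2163, 2278 and 2224 in the knockout and 956, 1055 and 791 in the wild type (1.25 ± 0.12). Cathepsin Z (1.07 ± 0.13), cathepsin H (0.89 ± 0.14), cathepsin B (Ctsb, 0.54 ± 0.07) and cathepsin L (0.59 ± 0.10) rose, while cathepsin F (0.04) and cathepsin K (-0.16) did not pass. Among genes of other storage diseases, the progranulin gene Grn (0.88 ± 0.10), the cholesterol binder Npc2 (0.69 ± 0.10), the hexosaminidase chain Hexa (0.63 ± 0.08) and the peptidase Tpp1 (0.42 ± 0.09) rose. Cln3 (0.15), Cln6 (0.07) and Mfsd8 (0.00), membrane proteins of the ceroid lipofuscinosis group, did not pass. The membrane glycoproteins Lamp1 (0.53 ± 0.08) and Lamp2 (0.81 ± 0.14) rose. Cd68, Ctss, Laptm5 and Ctsl, 4 of the 21, also stand in microglial lists, whose summed signal was 8523 to 9760 in the knockout and 3022 to 3913 in the wild type for the pan-microglia list, and their part in the lysosomal count was not tested. The CLEAR element core TCACGTGA, read by the factor TFEB, lay in 2 of 18 windows of the lysosomal genes that rose (11.1%), in 4 of 29 of those measured that did not pass (13.8%), in 1.12% of all genes with a window and in 2.12% of those tested.

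Lists of related systems held 0 or 1 call each. With 2.31% of all genes higher and 0.656% lower, lists of this size would hold few calls in any case, so these counts say little about the systems themselves. Of 17 measured vacuolar ATPase genes, which encode the pump that acidifies lysosomes, 0 passed (median 0.01), with Tcirg1 closest to it (0.56 ± 0.15, adjusted p 0.0598). Of 24 autophagy genes 0 rose and 1 fell (median -0.02). It was Pik3c3, the lipid kinase that starts autophagosomes (-0.33 ± 0.09, adjusted p 0.047), and that call was lost when any array other than the 8-month knockout was left out (adjusted p up to 0.16 without an array of 5 months). Without replicate 3 of the 8-month knockout 1 vacuolar ATPase gene and 2 autophagy genes were higher. Without wild-type replicate 2 or replicate 1 of the 8-month knockout it was 1 in each list, and without replicate 3 of the 8-month wild type 1 vacuolar ATPase gene. Of 27 genes of the palmitoylation cycle, the transferases that attach palmitate and the other enzymes that remove it, 0 passed (median -0.13). A negative change was seen in 19 and a positive one in 8. All knockout arrays lay below all wild-type arrays in 8 of the 27 and above in 2, beside 9.76% and 12.7% of all genes. The transferase Zdhhc9 had the smallest p (-0.35 ± 0.11, adjusted p 0.135). The paralog Ppt2 read 250, 260 and 250 in the knockout and 264, 293 and 292 in the wild type (-0.15 ± 0.16), and the thioesterase Lypla1 differed by -0.28 ± 0.11 (adjusted p 0.235).

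Lipid transport genes rose at 6 of 21 measured members, with 0 lower and a median of 0.19, beside 2.31% of all genes higher and 0.656% lower. Apolipoprotein E (Apoe), the main lipid carrier of brain, read 7627, 7600 and 8073 in the knockout and 5448, 6010 and 4971 in the wild type (0.51 ± 0.08, adjusted p 0.000272). The efflux pump Abca1 rose by 0.88 ± 0.15 and the fatty acid binder Fabp5 by 0.39 ± 0.07. Of 20 cholesterol synthesis genes 0 passed, and their changes lay between -0.22 and 0.24, the highest being the regulator Srebf2 (0.24 ± 0.11, adjusted p 0.348).

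Lists of stress and cell death genes held 0 to 2 calls each, all higher, beside 2.31% of all genes called higher. Of 21 antioxidant and metal-binding genes 2 rose and 0 fell (median 0.15). Heme oxygenase 1 (Hmox1) read 57.1, 52.9 and 66.9 in the knockout and 18.6, 22.6 and 13.7 in the wild type (1.13 ± 0.26, adjusted p 0.0171). The metal binder Mt1 read 6700, 6466 and 6277 in the knockout and 4193, 4294 and 4520 in the wild type (0.58 ± 0.14, adjusted p 0.0297), and its other probe set did not pass (0.46). The groups did not overlap, but the list count was 0 without knockout replicate 1 or 3 or wild-type replicate 3, and 1 without any other array of 5 months. Without replicate 3 of the 8-month knockout it was 5. Of 16 heat shock genes 1 rose, the small chaperone Cryab (0.35 ± 0.07). That count was 0 without knockout replicate 1 or 3 or wild-type replicate 1, and 4 without the 8-month array. Of 18 endoplasmic reticulum stress genes 0 passed (median 0.01), Atf4 having the smallest p (0.28 ± 0.10, adjusted p 0.18). Of 19 cell death genes 1 rose, the survival factor Mcl1 (0.48 ± 0.08, adjusted p 0.00115). In 8 of the 19 all knockout arrays lay above all wild-type arrays, a pattern found in 12.7% of all genes. Without the same 8-month array 2 cell death genes and 1 endoplasmic reticulum stress gene rose.

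Neuronal genes showed few calls, nearly all of them lower. Of 27 measured excitatory neuron genes 1 fell, the cortical transcription factor Tbr1, against 0.656% of all genes. Tbr1 read 125, 183 and 165 in the knockout and 271, 278 and 279 in the wild type, with no overlap (-0.76 ± 0.15, adjusted p 0.00382). Without the male knockout array it no longer passed (adjusted p 0.0567), and without replicate 3 of the 8-month knockout 2 members fell. The list's median was -0.18, and 21 of 27 members had a negative change. In 13 of 27 all knockout arrays lay below all wild-type arrays, a pattern found in 9.76% of all genes. The basic helix-loop-helix genes Neurod2 (-0.39) and Neurod6 (-0.35), the calmodulin binder Nrgn (-0.28) and the layer gene Rorb (-0.28) were on the lower side without passing, and Camk2a (0.28) and Emx1 (0.58) on the higher side.

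Of 25 interneuron genes 3 fell and 0 rose, with a median of -0.09, beside 0.656% of all genes called lower and 2.31% higher. The neuropeptide Vip read 403, 459 and 428 in the knockout and 615, 600 and 690 in the wild type (-0.55 ± 0.10, adjusted p 0.00335). The neuropeptide Cck read 1254, 1377 and 1286 in the knockout and 1681, 1930 and 1810 in the wild type (-0.46 ± 0.10, adjusted p 0.0158). The cannabinoid receptor gene Cnr1 read 973, 1103 and 1048 in the knockout and 1381, 1352 and 1515 in the wild type (-0.44 ± 0.08, adjusted p 0.00409), and its other probe set did not pass (-0.20). These mark Vip- and Cck-expressing interneurons, and Cck and Cnr1 are also made by excitatory neurons. Parvalbumin (Pvalb, -0.09), somatostatin (Sst, 0.07) and the GABA-synthesizing enzymes Gad1 (-0.21) and Gad2 (-0.19) did not pass. The count was 1 without the male knockout array, where Cnr1 (adjusted p up to 0.0552) and Cck (adjusted p up to 0.115) were lost. The Cck call was also lost without knockout replicate 3 or wild-type replicate 2 or 3, and 5 members passed without replicate 3 of the 8-month knockout.

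Receptor and synaptic lists held 0 to 2 calls each way, beside 0.656% of all genes called lower and 2.31% higher. Counts this small say little about the lists as a whole. Of 10 GABA-A receptor subunits 1 fell, Gabra2, the alpha 2 subunit. Its brightest probe set read 216, 248 and 222 in the knockout and 520, 579 and 526 in the wild type (-1.19 ± 0.13, adjusted p 8.37e-06), and its other tested probe sets fell by 1.39 and 1.17. The brightest probe set also passed at 3 and 8 months, with changes of -1.27 and -1.15. The next lowest subunit was Gabra4 (-0.29). Of 30 glutamate receptor and postsynaptic genes 2 fell, with a median of -0.09. The AMPA receptor subunit gene Gria2 read 1908, 1899 and 1928 in the knockout and 2166, 2430 and 2495 in the wild type (-0.30 ± 0.06, adjusted p 0.00691). The scaffold gene Dlgap1 fell by 0.37 ± 0.09, and that call was lost without knockout replicate 2 or 3 or wild-type replicate 3 (adjusted p up to 0.126), which left 1 call in the list. The other probe sets of Gria2 (-0.19 and -0.04) and of Dlgap1 (-0.18 to 0.15) did not pass. Of 30 presynaptic genes 0 fell and 1 rose, Sypl, a synaptophysin-like protein that is not restricted to neurons (0.45 ± 0.10). Its call was lost without knockout replicate 1 or 2 or wild-type replicate 1 or 2 (adjusted p up to 0.115), and its 5 other probe sets lay between -0.16 and 0.17. A single member fell without wild-type replicate 2 or without any 1 array of the 8-month knockout. The fusion protein Snap25 differed by -0.12 ± 0.06 (adjusted p 0.418).

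Markers of deep brain regions gave similar counts, beside 0.656% of all genes called lower and 2.31% higher. Such counts say little about the regions as a whole. Of 18 striatal neuron genes 2 fell (median -0.21, 16 of 18 negative). Pde10a, the phosphodiesterase of striatal projection neurons, read 638, 629 and 640 in the knockout and 1012, 924 and 1281 in the wild type (-0.73 ± 0.12, adjusted p 0.00109). The knockout arrays were nearly identical and lay well below the wild type, but its 4 other probe sets lay between -0.54 and 0.04 and none passed. Penk, the enkephalin precursor, fell by 0.30 ± 0.08 (adjusted p 0.037), a call lost without any knockout array or without wild-type replicate 2 or 3 (adjusted p up to 0.211). The striatal count was then 1, as it was without replicate 2 of the 3-month wild type or replicate 3 of the 8-month wild type. Of 15 thalamic neuron genes 1 fell, the protein kinase gene Prkcd, which read 181, 223 and 249 in the knockout and 413, 381 and 305 in the wild type (-0.71 ± 0.11, adjusted p 0.000558). Its other tested probe set differed by -0.14 and did not pass. The count was 2 without replicate 3 of the 3-month knockout. Of 14 cerebellar genes 0 passed (median -0.02), with Zic1 closest to it (-0.28 ± 0.08, adjusted p 0.0828), and Pcp2, a Purkinje cell gene, differed by 0.04 ± 0.18. Without replicate 3 of the 3-month knockout 1 member passed. Of 27 dense-core vesicle and neuropeptide genes, the granin Scg3 rose (0.31 ± 0.07), and the chaperone gene Scg5 (-0.23 ± 0.06) and Penk fell. Scg3 was lost without any 1 array of 5 months except knockout replicate 3 (adjusted p up to 0.104), and Scg5 without any except wild-type replicate 3 (adjusted p up to 0.182). The lower count was also 1 without replicate 2 of the 3-month or replicate 3 of the 8-month wild type.

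**Figure D4:**
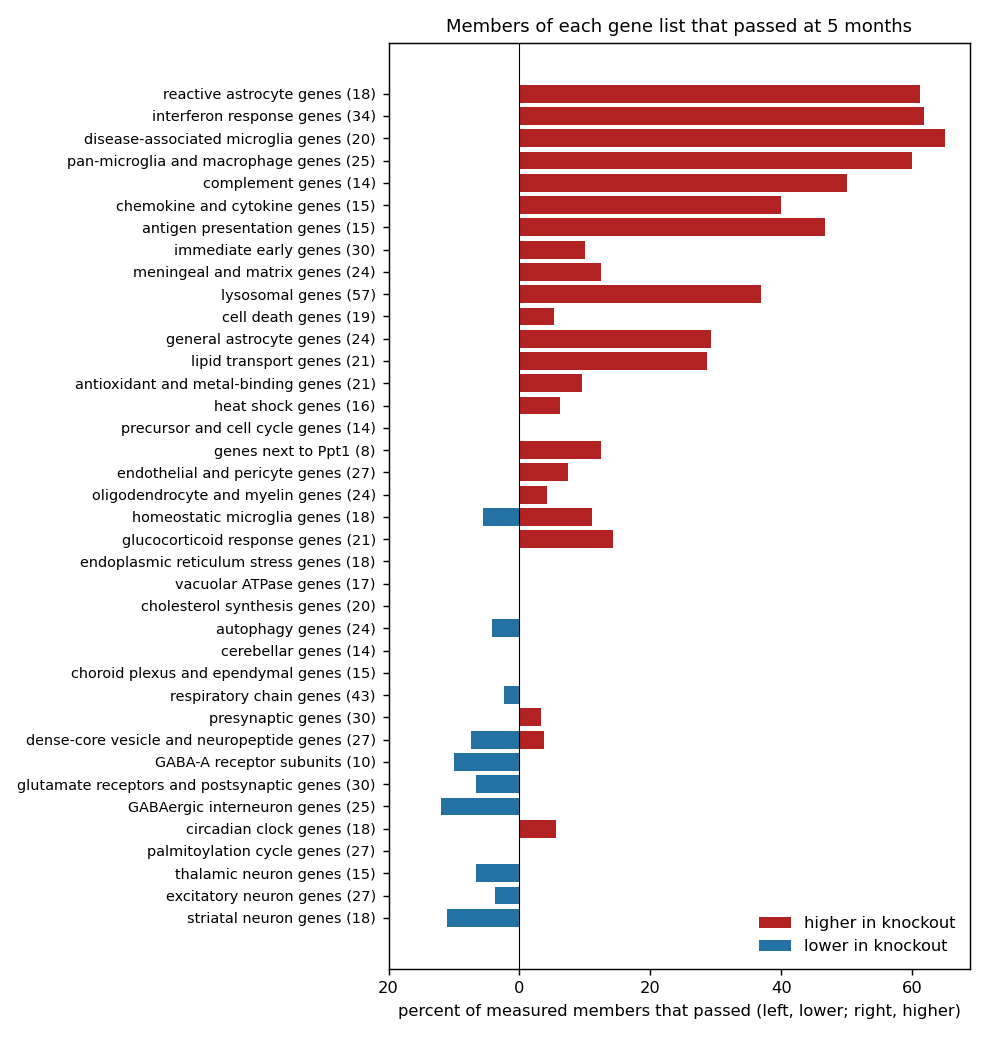
Percent of each list's measured members (number in parentheses) that passed lower (left, blue) or higher (right, red) in the knockout at 5 months, for lists of at least 8 measured members. Glial, interferon and lysosomal lists run to the right, with 13 of 20 disease-associated microglia genes at the far end, and the bars to the left, of 1 to 3 members each, belong to neuronal lists and to the homeostatic microglia, autophagy and respiratory chain lists.

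Immediate early genes, which neurons switch on within minutes of activity, had a median log2 change of 0.41 over 30 measured members. Of these 3 rose and 0 fell, beside 2.31% of all genes called higher and 0.656% lower. Fos read 874, 1073 and 771 in the knockout and 557, 169 and 169 in the wild type (1.76 ± 0.27, adjusted p 0.000391). The wild-type male stood far above the wild-type females and still below every knockout array. Junb (0.79 ± 0.18, adjusted p 0.0215) and Dusp1 (0.64 ± 0.17, adjusted p 0.0493), a phosphatase of MAP kinases, overlapped between the groups because the wild-type male, at 117 and 656, exceeded a knockout array. Egr1 (0.91 ± 0.26), Egr2 (1.42 ± 0.46), Arc (1.32 ± 0.47) and Nr4a1 (1.01 ± 0.29) did not pass. Arc read 433, 392 and 360 in the knockout and 381, 73.2 and 108 in the wild type, again with a high wild-type male. The median of the list on single arrays was 0.48, 0.57 and 0.28 in the knockout and 0.24, -0.11 and -0.14 in the wild type. The count was 1 without knockout replicate 2 or wild-type replicate 2 or 3, when Junb (adjusted p up to 0.17) and Dusp1 (adjusted p up to 0.279) were lost. Leaving out an array of the 8-month knockout gave 6 members (replicate 1 or 2) or 11 (replicate 3).

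Of 21 glucocorticoid response genes 3 rose, beside 2.31% of all genes. They were Lcn2, Cebpd and Dusp1, which stand in other lists too. The classical targets Fkbp5 (-0.50) and Tsc22d3 (-0.64) did not pass. The median was 0.03, and the count was 1 without wild-type replicate 3. Without any 1 array of the 8-month knockout a single member fell. Beside the same 2.31% of all genes, 1 of 18 circadian clock genes rose, the repressor Bhlhe40 (0.52 ± 0.10), with a median of -0.10. Its call was lost without knockout replicate 2 (adjusted p 0.0703), and 2 members passed without knockout replicate 3, without replicate 3 of the 8-month knockout, or without replicate 1 or 3 of the 3-month wild type. A single member fell without replicate 1 or 3 of the 8-month knockout.

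Lists of other cell types held 0 to 3 higher calls each, beside 2.31% of all genes called higher and 0.656% lower. Counts this small say little about the cell types. Of 24 oligodendrocyte and myelin genes 1 rose, Bcas1 (0.33 ± 0.08, adjusted p 0.0367), a gene of early myelinating cells, and the median was 0.07. That call was lost without any 1 array of 5 months (adjusted p up to 0.216) and without replicate 2 of the 8-month wild type, and 3 members rose and 1 fell without replicate 3 of the 8-month knockout. Myelin basic protein (Mbp) read 11164, 11291 and 12115 in the knockout and 10584, 11566 and 9174 in the wild type, with overlap. Of 14 precursor and cell cycle genes 0 passed (median 0.13), Ccnd1 having the smallest p (0.32 ± 0.11, adjusted p 0.159). Of 27 endothelial and pericyte genes 2 rose. The adhesion molecule Vcam1 read 346, 325 and 303 in the knockout and 164, 189 and 200 in the wild type (0.77 ± 0.13, adjusted p 0.000748), though its 2 other probe sets lay at -0.12 and 0.23. Vitronectin (Vtn, 0.38 ± 0.09) was lost without any 1 array of 5 months (adjusted p up to 0.135). The endothelial tight junction gene Cldn5 (0.00) did not pass. Of 24 meningeal and matrix genes 3 rose, the C1 inhibitor Serping1, the stress gene Nupr1 (0.82 ± 0.16) and the collagen binder Fmod (0.74 ± 0.16), with a median of 0.30. None of the 5 other probe sets of Fmod passed (0.05 to 0.46), nor did the other probe set of Nupr1 (0.54). The count was 0 when the male knockout array was left out and 1 when wild-type replicate 2 was. It was 5, with 1 member lower, when replicate 3 of the 8-month knockout was. All knockout arrays lay above all wild-type arrays in 12 of the 24 meningeal and matrix genes and below in 1. These patterns were found in 12.7% and 9.76% of all genes. Of 15 choroid plexus and ependymal genes 0 passed (median -0.02), the ciliary regulator Foxj1 having the smallest p (0.56 ± 0.18, adjusted p 0.139), and the choroid plexus gene Ttr overlapped. Of 7 measured cochlear genes 0 passed, Gjb2 having the smallest p (0.50 ± 0.15, adjusted p 0.0976) and 1 passing without replicate 3 of the 8-month knockout, and of 2 blood cell genes 0 passed.

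Several single genes outside these lists or alone in theirs changed sharply. S100a4, a calcium-binding protein of motile cells, read 109, 96.0 and 70.5 in the knockout and lay at background on all wild-type arrays, so it was at least 6.25-fold higher in the knockout (adjusted p 0.000104). Of the 10 genes on either side of Ppt1 on its chromosome, 8 were measured and 1 changed, Cap1, the immediate neighbour, which encodes an actin-binding protein. Cap1 read 1257, 1178 and 1266 in the knockout and 151, 166 and 133 in the wild type (2.92 ± 0.13, 7.55-fold, adjusted p 4.11e-12), with its other probe set higher by 2.44. Of 43 respiratory chain genes 1 fell, beside 0.656% of all genes. That member was Ndufs5, a complex I subunit on the same chromosome 4 outside those 20 neighbours. It read 1104, 1164 and 1232 in the knockout and 2534, 2635 and 2422 in the wild type (-1.11 ± 0.07, adjusted p 1.34e-09). The median of the respiratory chain list was -0.03, no other member lay below -0.24, and 2 fell without replicate 3 of the 8-month knockout. The list is not complete: the complex I subunit Ndufb6 (-0.27, adjusted p 0.0262) and the ATP synthase subunit Atp5j2 (-0.25, adjusted p 0.0233), which it does not hold, fell too. Wdfy1, an endosomal adaptor, read 55.0, 64.1 and 82.9 in the knockout and 202, 216 and 223 in the wild type (-1.48 ± 0.17), and its 2 other probe sets fell by 1.11 and 0.86. The mitochondrial transhydrogenase Nnt fell by 0.81 ± 0.14 and at its other probe set by 0.66. On chromosome X, G530011O06Rik read 115, 112 and 66.0 in the knockout and 340, 407 and 723 in the wild type (-2.11 ± 0.28). Erdr1 read 1464, 2085 and 1871 in the knockout and 6119, 5836 and 7191 in the wild type (-1.82 ± 0.16), while its other probe set did not pass (-0.92). For both, a wild-type female was the highest array and no knockout array reached the wild type. At 3 and 8 months Cap1 changed by 2.67 and 2.85, Ndufs5 by -1.06 and -1.24, and Wdfy1 by -1.3 and -1.11. Nnt changed by -0.95 and -0.61, Erdr1 by -1.44 and -1.5, and G530011O06Rik by -1.15 and -0.91. All of these passed at the other ages too, so their changes were not particular to 5 months. S100a4 changed by 0.45 at 3 months, without passing, and by 2.33 at 8 months.

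The remaining large decreases rested on weaker evidence. They were Tmem40 (-1.05 ± 0.22), Jpt1 (-0.89 ± 0.18), Ubxn2b (-0.88 ± 0.18), the zinc finger gene Zfp958 (-0.84 ± 0.22), Tmem19 (-0.79 ± 0.19), the ephrin receptor Epha4 (-0.77 ± 0.17) and the Golgi complex subunit Cog7 (-0.75 ± 0.18). The rule that named these genes kept only calls without overlap between groups, so their separation is no further evidence. Each lost its call when 1 of 2 to 6 arrays of 5 months was left out, the male knockout array among them in all 7, with adjusted p up to 0.252 (Zfp958). The other probe sets of Ubxn2b (-0.06 and -0.02), Tmem19 (-0.32 to -0.07) and Epha4 (-0.51 to 0.13) did not pass. Tmem40 and Jpt1 each had 1 other probe set that passed in the same direction.

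Set beside the other ages, the increases at 5 months mostly had the same sign at 3 and at 8 months, and so did most decreases. Each age has its own knockout and wild-type arrays, so the contrasts share no controls. They do share 1 fit over all 18 arrays, with its estimate of the spread and its sex term. Calls at different ages are therefore not independent of each other. Of the 442 higher probe sets, 421 (95.2%) had a positive change at 3 months and 433 (98.0%) at 8 months. The 143 also called higher at 3 months are 32.4% of the 442 and 77.7% of the 184 called at that age, and the 349 also called higher at 8 months are 79.0% of the 442 and 22.5% of 1550. Their median change (log2) at 3, 5 and 8 months was 0.40, 0.74 and 0.74. Of the 153 lower probe sets, 136 (88.9%) had a negative change at 3 months and 135 (88.2%) at 8 months, and 30 were also called lower at 3 months (19.6%, and 40.5% of the 74 of that age) and 76 at 8 months (49.7%, and 4.76% of 1597), with medians of -0.17, -0.47 and -0.29. The calls of the other ages, 184 and 1550 higher and 74 and 1597 lower, are out of the same 27025 probe sets tested. How many of all probe sets had a positive or negative change at those ages was not counted. The shares with the same sign therefore have no background beside them. Since these probe sets were picked by their call at 5 months, their sizes at that age are a description. At all 3 ages 127 probe sets (88 genes) were called higher and 26 (16 genes) lower, and 77 higher and 73 lower calls were made at 5 months alone.

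The difference between ages was tested directly. Comparing the 5-month effect with the 3-month effect, 0 probe sets (0.0%) passed in limma, 1611 had an unadjusted p under 0.05, and the lowest adjusted p was 0.1. Comparing it with the 8-month effect, 0 (0.0%) passed, 3089 had an unadjusted p under 0.05, and the lowest adjusted p was 0.155. These counts turned on replicate 3 of the 8-month knockout. Without it, 23 probe sets had a more positive and 1 a more negative effect at 5 than at 3 months, and 542 and 544 did against 8 months. That fit keeps only replicates 1 and 2 of the 8-month knockout, a male and a female, and its 8-month mean differs too. With all arrays the 5-month minus the 8-month effect was -1.75 for Gpnmb (adjusted p 0.246). Since no difference passed with all arrays, the values of the fit without that array are a description. In that fit the effect on Serpina3n was larger at 5 than at 3 months by 1.62 (adjusted p 0.00117), on Gfap by 0.96 (adjusted p 2.78e-05), on Gpnmb by 1.84 (adjusted p 0.00441), on S100a4 by 1.82 (adjusted p 0.047) and on Ctsd by 0.45 (adjusted p 0.0281). The 5-month effect minus the 8-month effect was -2.41 for Gpnmb (adjusted p 7.33e-05), -1.61 for Lyz2 (adjusted p 0.000345), -2.22 for Lcn2 (adjusted p 0.0166) and -0.62 for Gfap (adjusted p 0.00112), each smaller at 5 months. It was 0.59 for Atf4 (adjusted p 0.00138), a factor of the stress response, which passed in the other direction. Cxcl10 and H2-K1 did not pass in that fit. For Cxcl10 the effect at 5 months exceeded that at 3 months by 0.15 ± 0.37 (adjusted p 0.954) and that at 8 months by 0.19 ± 0.39 (adjusted p 0.846). For H2-K1 the same differences were 0.14 ± 0.12 (adjusted p 0.831) and 0.12 ± 0.13 (adjusted p 0.666). With all arrays, the interferon list had median changes of 0.95, 0.94 and 0.72 at 3, 5 and 8 months, and the reactive astrocyte list 0.41, 1.22 and 2.01. Cog7 was the only gene called in opposite directions, -0.75 (adjusted p 0.0273) at 5 months and 0.65 (adjusted p 0.026) at 8 months. Its 5-month call was lost without any 1 array of that age (adjusted p up to 0.126). With all arrays the difference between these ages did not pass for Cog7 (adjusted p 0.155).

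**Figure D5:**
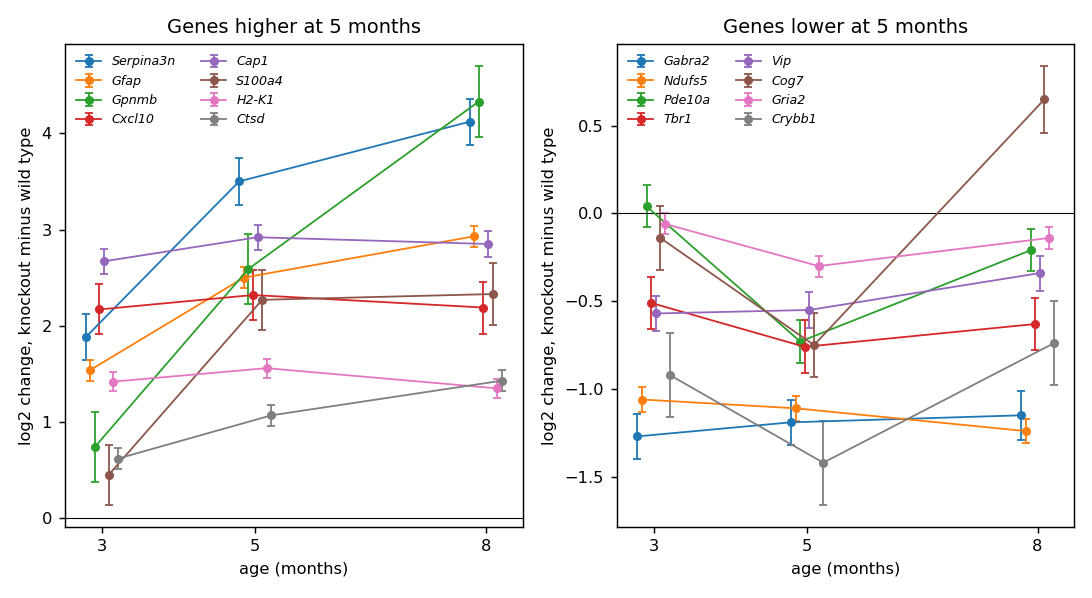
Log2 change, knockout minus wild type, with its standard error at 3, 5 and 8 months for 8 genes higher (left) and 8 genes lower (right) at 5 months, Gfap and Gabra2 at their brightest probe set. Gpnmb lies at 0.74, 2.59 and 4.33, Cxcl10 between 2.17 and 2.32, and Cog7 at -0.75 at 5 months and 0.65 at 8 months. No difference between ages passed with all arrays.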

How the data were processed

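Total RNA of 18 samples was measured on Affymetrix mouse 430 2.0 arrays. The value table holds 1 signal intensity per probe set and array as deposited by the authors, on a linear scale. Its values show that each array was scaled to a mean of 150 after removal of the lowest and highest 2% of probe sets. The software that made the signals is not given in the sources used here, nor is the extraction of the RNA by animal. The number of arrays limits the precision.

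Values were used as log2(signal + 16), so fold changes of dim genes are understated. After removal of 64 control probe sets and the lowest 40% by mean, 27025 of 45101 were tested with limma 3.58.1 in R 4.3.3 (lmFit, then eBayes with a variance trend), with 6 groups of age and genotype and sex as terms over all 18 arrays. Adjustment was by Benjamini and Hochberg's procedure across the 27025 tests, with 0.05 as the threshold, and every adjusted p in the text is from limma. Differences between ages are contrasts of the same fit. Background is the 95th percentile of 27 bacterial control probe sets on each array. Of the tested probe sets 22966 carry 1 gene symbol, 571 several and 3488 none, by GEO's platform annotation, and of 34958 with 1 symbol on the array 34754 matched a RefSeq gene. In 41 gene lists the brightest probe set stood for a gene. Of the listed symbols 88 had no probe set.

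The comparison, the lists and the tests were chosen with earlier results of these data known, and no list is independent evidence of its direction. Named were Ppt1, up to 15 genes each way with the largest change among those that passed without overlap of arrays, up to 3 members of each list with the smallest p, or 1 where none passed, and up to 5 genes each way for each difference between ages. For the genes with the largest change, lack of overlap was part of the rule and is no further evidence. Further genes were named after their values were seen. Promoters are from RefSeq (GRCm38.p6). The alternatives were another pseudocount, filter, normalization, variance model or set of arrays, 1 probe set per gene, array weights and each array left out.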

Additional observations from a re-analysis of the deposited data

How the results depend on the processing

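The 442 higher and 153 lower calls at 5 months ranged from 247 to 642 and from 47 to 288 when each of the 18 arrays was left out in turn (247 to 361 and 47 to 153 for the arrays of 5 months). Both maxima came without replicate 3 of the 8-month knockout, and without all 3 arrays of that group they were 672 and 321. With females only, 2 arrays against 2, the counts were 215 and 40. The lower count was 262 with array weights, 98 with 1 probe set per gene and 75 without a variance trend. Calls for the difference between 5 and 3 months, 0 with all arrays, ranged from 0 to 23 more positive and 0 to 1 more negative with 1 array left out. Without the 3 knockout arrays of 8 months they were 24 and 2, and with array weights 6 were more positive. Calls for the difference between 5 and 8 months ranged from 0 to 542 more positive and 0 to 544 more negative with 1 array left out, and were 88 and 97 with array weights. The cause of these shifts was not tested.

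Of 85 named probe sets that passed, 0 changed direction under any alternative, 51 passed under every alternative and 56 with each array of 5 months left out. Not passing were 29 with females only, 25 without the male knockout array, 18 without a variance trend, 8 without a filter, 4 with a pseudocount of 1 and 2 with quantile normalization. No paired analysis was possible because sample numbers in the labels run on without repeating between groups, and the replicate numbers here follow accession order. Of dim genes at background in 1 genotype the arrays give only a bound.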

Other observations

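Of the called genes, 191 higher and 103 lower ones stood in none of the 41 lists, 24 and 4 of them changed at least 2-fold. The genes below were picked from these calls after their values were seen, and genes of the same families or functions that were not called were not counted, so they stand for themselves only. Besides S100a4, the calcium-binding protein gene S100a6 read 544, 513 and 383 in the knockout and 141, 133 and 139 in the wild type (1.68 ± 0.15, adjusted p 4.07e-07). S100a16 (0.77) and S100a10 (0.69) were also called higher, as were Anxa3 (0.79), Anxa4 (0.69) and Anxa5 (0.58), which encode calcium-dependent membrane binders. Podoplanin (Pdpn), a membrane glycoprotein, read 513, 495 and 441 in the knockout and 169, 194 and 164 in the wild type (1.38 ± 0.13, adjusted p 9.72e-07). The protease inhibitor A2m (1.53), the chitinase-like protein Chil1 (1.27) and the sodium pump regulator Fxyd1 (1.16) rose as well. The receptor genes Cd84 (1.15) and Slamf9 (1.15), the actin capping protein Capg (1.01) and the interferon-inducible genes Gbp7 (0.99) and Parp9 (0.99) rose. Ms4a7 read 69.8, 114 and 72.1 in the knockout and 23.9, 6.36 and 5.96 in the wild type, Ifi47 read 48.1, 44.8 and 87.6 in the knockout and 5.8, 21.3 and 8.73 in the wild type, and the RNA sensor Tlr3 read 64.4, 54.4 and 49.1 in the knockout and 12.1, 14.2 and 35.7 in the wild type. These 3 genes passed higher, but 2 of the 3 wild-type arrays did not exceed background for any of them, so the size of their change is uncertain. Tspo, the mitochondrial protein whose ligands are used to image glial activation, passed higher (adjusted p 0.0231) with 1 wild-type array at background.

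Of the lower genes in no list, Rasgrp1, an activator of Ras, read 395, 392 and 445 in the knockout and 731, 785 and 484 in the wild type (adjusted p 0.0215). The potassium channel gene Kcnd2 fell by 0.44 (adjusted p 0.0348) and Kcnip2, whose product binds that channel, by 0.54 (adjusted p 0.0454). The calcium pumps Atp2b2 and Atp2b1 fell by 0.51 and 0.38 (adjusted p 0.0254 and 0.0121). The phospholipase Plcb1 fell by 0.53 (adjusted p 0.0444), the synaptic adhesion gene Lrrtm2 by 0.65 (adjusted p 0.037) and the calcium sensor gene Hpca by 0.29 (adjusted p 0.0251). Several of these lie near the threshold. Their calls were not followed with single arrays left out, and many lower calls were lost without the male knockout array. The ubiquitin ligase gene Mkrn1 read 215, 196 and 197 in the knockout and 324, 309 and 360 in the wild type (-0.67, adjusted p 0.000109), and its change was -0.71 at 3 months and -0.66 at 8 months.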
